A study of Mus musculus with 8 samples.

Results

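Vim, Lmna, S100a4, S100a6, S100a10, S100a11, Anxa1, Anxa2, Lgals1 and Lgals3 are 10 of the 41730 genes in the count table, and 9 of the 10 passed the filter on low counts that left 13290 genes for testing. They were chosen by name, as cytoskeletal, S100, annexin and galectin genes linked to migratory effector T cells, with the difference between RGX-104 and control cultures already known. Their differences are therefore a description and carry no p-value. The RNA sequenced came from mouse OT-I CD8+ T cells, whose transgenic T cell receptor recognises SIINFEKL, a peptide of ovalbumin. The T cells had been cultured with SIINFEKL-pulsed bone marrow-derived dendritic cells (BMDCs) of LXR-/- genotype and were then purified by flow cytometry. The tested cultures received 2 uM RGX-104, a synthetic agonist of the liver X receptors (LXR), and the control cultures received its vehicle, DMSO. Each group held 4 libraries. The LXR-/- genotype of the BMDCs was shared by both groups, the labelled genotype of the T cells was OT-I in both, and neither the time in culture nor the age of the animals is given in the sources used here. Whether libraries of a group stem from separate cultures or mice is not in the labels, so SDs and p-values reflect the spread among these libraries alone, which may be technical.

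Vimentin is the intermediate filament protein of lymphocytes and other mesenchymal cells, and lamins A and C, both made from Lmna, form a meshwork under the nuclear membrane together with the B-type lamins. S100 proteins are small calcium-binding proteins and annexins bind phospholipid membranes in a calcium-dependent manner; S100A10 and annexin A2 form a complex at the plasma membrane. Galectins bind beta-galactoside sugars on glycoproteins inside and outside cells. Transcripts of these families are commonly abundant in antigen-experienced and tissue-homing T cells, and they are also abundant in macrophages and dendritic cells.

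The promoter bases of Vim, Lmna and Lgals3 are shown because these 3 genes differed by at least 2-fold. Each line gives the 250 bases before an annotated transcription start, 5′ to 3′ on the gene's strand, from RefSeq on GRCm38.p6. Capitals mark matches, on either strand, to 4 motifs: the letters TATAAA were searched as the TATA box, the letters CCAAT as the CCAAT box, the letters GGGCGG as the GC box, and the letters AGGTCA as the core motif of nuclear receptors. No matches in the 4 windows overlapped.
Vim, chr2:13574061-13574310, plus strand: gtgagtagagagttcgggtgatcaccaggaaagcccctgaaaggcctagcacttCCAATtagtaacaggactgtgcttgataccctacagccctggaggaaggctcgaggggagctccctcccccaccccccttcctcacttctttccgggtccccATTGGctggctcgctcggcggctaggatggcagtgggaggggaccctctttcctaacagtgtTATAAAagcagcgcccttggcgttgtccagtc
Lmna, first start, chr3:88503353-88503602, minus strand: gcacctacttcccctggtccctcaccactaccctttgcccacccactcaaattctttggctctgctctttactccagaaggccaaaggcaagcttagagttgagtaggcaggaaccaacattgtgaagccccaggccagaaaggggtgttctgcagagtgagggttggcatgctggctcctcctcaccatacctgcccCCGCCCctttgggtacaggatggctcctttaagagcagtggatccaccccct
Lmna, second start, chr3:88493313-88493562, minus strand: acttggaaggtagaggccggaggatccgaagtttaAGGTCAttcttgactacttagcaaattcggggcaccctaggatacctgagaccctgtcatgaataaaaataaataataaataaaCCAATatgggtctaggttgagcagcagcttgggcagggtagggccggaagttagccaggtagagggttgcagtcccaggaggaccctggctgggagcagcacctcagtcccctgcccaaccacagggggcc
Lgals3, chr14:47373610-47373859, plus strand: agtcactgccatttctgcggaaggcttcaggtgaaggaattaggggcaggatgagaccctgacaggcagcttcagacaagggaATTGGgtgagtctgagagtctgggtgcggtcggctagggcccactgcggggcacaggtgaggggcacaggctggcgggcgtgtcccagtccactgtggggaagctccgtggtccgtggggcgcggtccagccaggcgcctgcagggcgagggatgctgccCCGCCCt
The Vim window held a TATA box 32 bases and CCAAT boxes 94 and 196 bases before the start. The Lmna gene had windows at 2 starts, the first with a GC box 52 bases before it, the second with a CCAAT box 131 bases and a core motif 215 bases before it. Both Lmna windows lie inside the gene's span of chr3:88481148-88509932, so bases upstream of that span were not searched. The Lgals3 window held a GC box 7 bases and a CCAAT box 167 bases before the start. CCAAT was the motif that all 3 genes shared, each in at least 1 window, and 33.8% of all 32851 promoter windows of the same length held it. S100a6 had it as well. Over the 8 of 10 genes with a window in RefSeq's table, TATAAA was in those of Anxa1, Anxa2, S100a4 and Vim (12.4% of all windows), GGGCGG in those of Anxa2, Lgals3, Lmna and S100a11 (32.7%), TGANTCA, the AP-1 motif, in those of Anxa2 and S100a11 (6.75%), and AGGTCA in those of Lmna, S100a11 and S100a4 (14%). The core motif in a direct repeat spaced by 4 bases, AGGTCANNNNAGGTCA, the form that LXR binds together with its partner RXR, was in none of the genes' windows and in 0.0152% of all windows, so its absence says only that these exact letters are not there.

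Library totals ranged from 30642316 to 35244624 counts in RGX-104 and from 33942140 to 37714355 counts in control libraries (two-sided exact permutation p = 0.0857, n = 4 each). Abca1, the cholesterol exporter and textbook LXR target, averaged 125 ± 6.21 counts per 1000000 counts of the library (CPM) in RGX-104 and 1.72 ± 0.295 CPM in control libraries, and all 6 LXR targets checked were called higher. The 12 CD8 T cell markers summed to 3916 ± 26.3 CPM in RGX-104 and 3997 ± 62.3 CPM in control libraries. Of the 11 that were tested, edgeR called 4 lower, Cd247 (log2 fold change -0.18 ± 0.03, adjusted p = 4.34e-05), Cd3e (-0.14 ± 0.03, adjusted p = 0.00295), Cd8a (-0.12 ± 0.02, adjusted p = 0.00273) and Cd8b1 (-0.12 ± 0.03, adjusted p = 0.00264), and 2 higher, Lat (0.09 ± 0.03, adjusted p = 0.0254) and Lck (0.10 ± 0.03, adjusted p = 0.0395; both named after their values were seen). In all, 54.5% of these 11 genes were called, against 8.95% of all tested genes. The call of Cd8a was lost with each of 2 close pairs of RGX-104 libraries, 2 with 3 and 1 with 4, summed (edgeR adjusted p = 0.0524). Cd2 and Lck have a second row in the table, so their counts may be incomplete. Of 28 dendritic cell and macrophage markers, 16 did not reach the filter. The whole list summed to between 215 and 234 CPM in RGX-104 and between 194 and 206 CPM in control libraries, without overlap. A few genes carried most of this sum. The largest mean values were those of Cd83 (49.9 CPM with RGX-104, 47.2 CPM in control), Cst3 (48.8 and 48.1) and Batf3 (39.1 and 37.9). Ctss (34.7 and 27.1) and Cd74 (33.2 and 26.5) came next. The 5 defining myeloid transcripts Lyz2, Csf1r, Spi1, Tyrobp and Fcer1g summed to at most 0.744 CPM in RGX-104 and 0.649 CPM in control libraries, with no more than 13 counts for any of them in a library, and C1qa was at 0 in all 8. The MHC class II genes H2-Aa, H2-Ab1 and H2-Eb1 were listed at 0 but have a second row in the table and were not assessed. Markers of other blood cells summed to 4.96 ± 0.279 CPM in RGX-104 and 4.93 ± 0.682 CPM in control libraries. Of the 12 tested dendritic cell and macrophage markers, 3 were called higher, Ccl22 (log2 fold change 1.24 ± 0.11 SE, edgeR adjusted p = 1.45e-08), Ctss (0.36 ± 0.04, edgeR adjusted p = 1.70e-06) and Cd74 (0.32 ± 0.04, edgeR adjusted p = 6.12e-06). Mpeg1 was called lower (-0.77 ± 0.18, edgeR adjusted p = 0.00733). Of these 12 markers 33.3% were called, against 8.95% of all tested genes. The part of these T cell and dendritic cell markers in the differences of Vim, Lmna, Lgals3 and the other genes was not tested. Counts of 2 pairs of RGX-104 libraries lay close together: the chi-square per degree of freedom was 1.34 between libraries 2 and 3 and 2.24 between libraries 1 and 4, against 2.42 to 6.32 for all other pairs within a group.

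Vim and Lmna, the genes of the cytoplasmic and nuclear filaments, were both more than 2-fold higher with RGX-104. Vim had 503, 531, 518 and 514 CPM in the 4 RGX-104 libraries and 227, 236, 241 and 246 CPM in the 4 control libraries. The groups were far apart: the lowest RGX-104 library was above the highest control library by more than the whole control level. Means were 516 ± 11.6 CPM with RGX-104 and 238 ± 8.05 CPM in control (SD, n = 4 each), a 2.17-fold difference with a log2 fold change of 1.12 ± 0.03 (SE). Vim is a gene of high level, at the 96.6th percentile of tested genes, with 15544 to 18778 counts per RGX-104 library and 7915 to 9122 per control library. In bulk RNA, more cells of a type and more RNA per cell cannot be told apart. Vim lies on chr2:13574311-13582826 (GRCm38, plus strand).

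Lmna had 24.2, 23.7, 23.4 and 24.9 CPM in the RGX-104 libraries and 10.4, 11.3, 10.8 and 12.5 CPM in the control libraries. The groups did not overlap, and control library 4 was the highest of its group. The means of 24.0 ± 0.666 CPM with RGX-104 and 11.2 ± 0.943 CPM in control (SD, n = 4 each) gave a 2.14-fold difference (log2 fold change 1.10 ± 0.06 SE). The level was lower by far than that of Vim, at the 44.5th percentile. Gene counts do not separate lamin A from lamin C. Lmna lies on chr3:88481148-88509932 (minus strand).

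The B-type lamins, Lmnb1 and Lmnb2, were slightly lower in mean and did not pass the threshold. Lmnb1 had 402, 429, 426 and 423 CPM with RGX-104 and 424, 441, 439 and 455 CPM in control, so the groups overlapped (log2 fold change -0.07 ± 0.03, edgeR adjusted p = 0.161). Lmnb2 averaged 90.6 ± 1.46 CPM with RGX-104 and 94.5 ± 2.72 CPM in control (log2 fold change -0.06 ± 0.03, edgeR adjusted p = 0.247). Expressed per kilobase of the longest coding transcript, Lmna made up 4.40%, 4.08%, 4.05% and 4.32% of the 3 lamin transcripts in RGX-104 libraries and 1.83%, 1.92%, 1.85% and 2.09% in control libraries. The mean share was 4.21 ± 0.174% with RGX-104 and 1.92 ± 0.120% in control, so the B-type lamins made up most of the lamin transcripts in both groups.

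Another 19 tested genes were listed for intermediate filaments and the nuclear lamina, with genes of binding and processing proteins among them. Of these, 1 was called higher and 1 lower, 10.5% against 8.95% of all genes. Their median log2 fold change was 0.02, against 0.00 for all tested genes. Lemd3, an inner nuclear membrane protein, rose (40.2 ± 0.512 CPM with RGX-104, 36.2 ± 1.50 CPM in control, edgeR adjusted p = 0.0131), and Banf1, the chromatin-bridging partner of LEM-domain proteins, fell (264 ± 4.73 CPM with RGX-104, 281 ± 5.76 CPM in control, edgeR adjusted p = 0.0279). The call of Banf1 was lost without any 1 of the 4 RGX-104 libraries or control library 3 (edgeR adjusted p up to 0.104), and that of Lemd3 with the close RGX-104 pairs summed (edgeR adjusted p = 0.0759). Emd, the lamin-binding protein emerin, had a log2 fold change of -0.06 (edgeR adjusted p = 0.280), Lbr, the lamin B receptor, of -0.02 (adjusted p = 0.675) and Zmpste24, the protease that matures prelamin A, of -0.03 (adjusted p = 0.623). Plec, the plectin that cross-links vimentin filaments to other cytoskeletal elements, had 178, 188, 180 and 169 CPM with RGX-104 and 157, 158, 144 and 119 CPM in control. Its groups did not overlap, but control library 4 stood below the other 3, and the difference did not pass the threshold (log2 fold change 0.31 ± 0.10, edgeR adjusted p = 0.115). Without control library 4 the log2 fold change of Plec was 0.23 (edgeR adjusted p = 4.68e-04). Without any 1 other library the edgeR adjusted p of Plec was 0.0925 to 0.244, and with the close RGX-104 pairs summed 0.370. Plec was called by DESeq2 (adjusted p = 0.0198) and with 1 surrogate variable added to the model, and not by limma-voom (adjusted p = 0.0571).

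**Figure D1:**
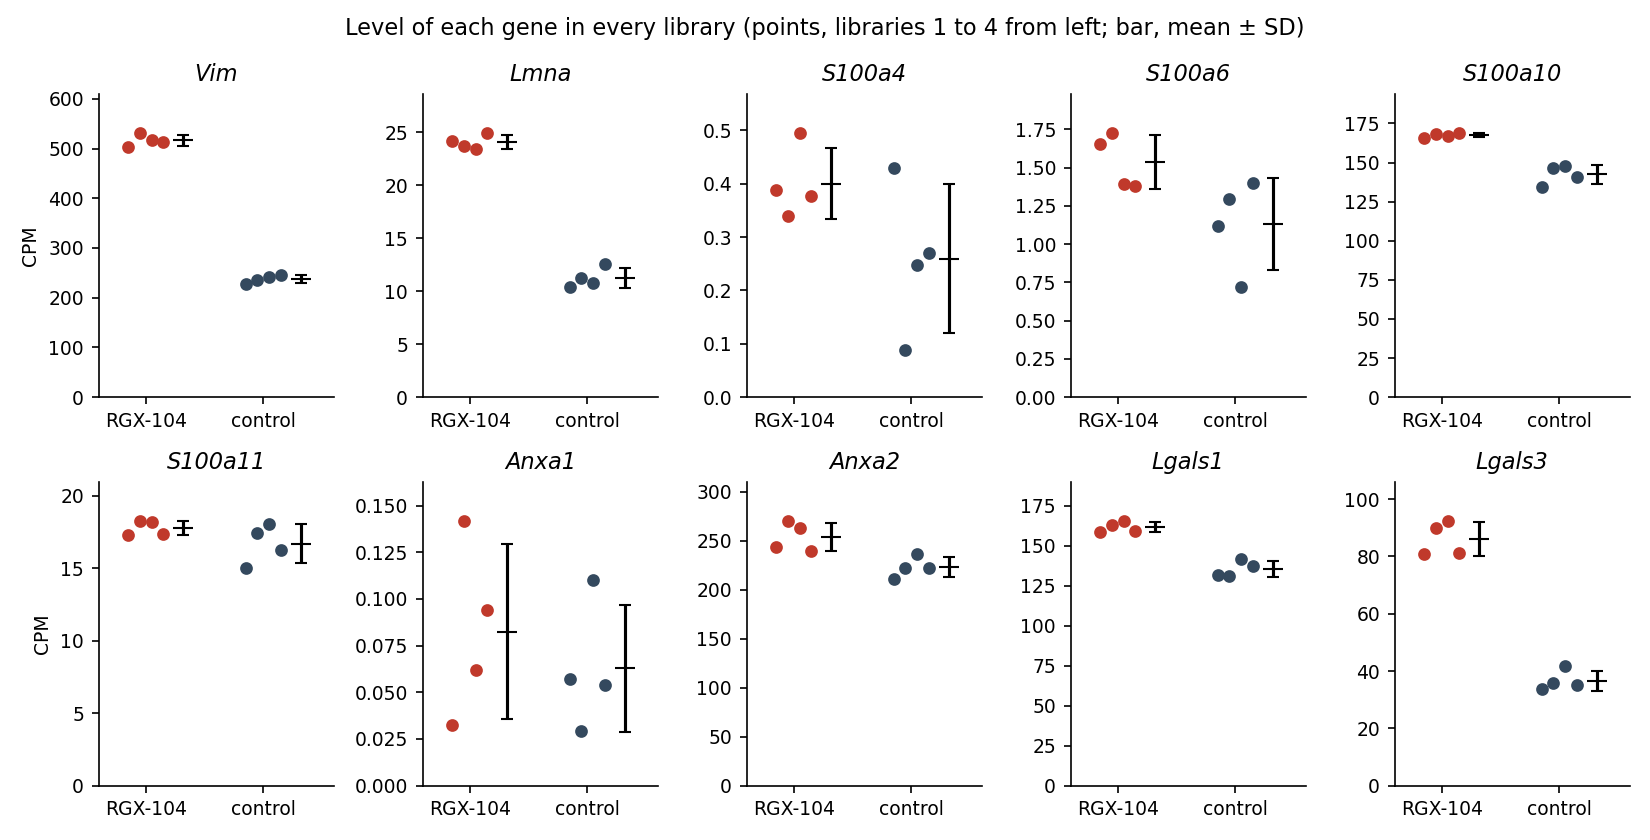
Level in CPM of each of the 10 genes in every library (points, libraries 1 to 4 from left, RGX-104 left of control), with mean and SD (n = 4 each); each panel has its own axis starting at 0. Vim, Lmna and Lgals3 lie far above control, Lgals1, S100a10 and Anxa2 lie above it by less, and S100a4, S100a6, S100a11 and Anxa1 overlap.

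Of the galectins, Lgals3 differed most, and it had the greatest fold of the 9 genes tested. It had 80.8, 89.9, 92.2 and 81.0 CPM in the RGX-104 libraries and 33.6, 35.7, 41.6 and 35.0 CPM in the control libraries. Libraries 2 and 3 of the RGX-104 group were higher than libraries 1 and 4, the same pairs whose whole counts lay close, and all 4 were above every control library. The means were 86.0 ± 5.92 CPM with RGX-104 and 36.5 ± 3.53 CPM in control (SD, n = 4 each), a 2.36-fold difference (log2 fold change 1.24 ± 0.07 SE), and with each of the close pairs summed into 1 library the log2 fold change was 1.23. Galectin-3 is the chimeric galectin that can form lattices on the cell surface, and it is found in the cytosol too. The gene lies on chr14:47373860-47386167 (plus strand).

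Lgals1, which encodes the dimeric galectin-1, had 159, 163, 165 and 159 CPM with RGX-104 and 132, 131, 142 and 137 CPM in control. These groups did not overlap, but the difference was small: means were 162 ± 2.98 CPM with RGX-104 and 135 ± 5.18 CPM in control (SD, n = 4 each), 19.3% higher (log2 fold change 0.25 ± 0.03 SE). Lgals1 lies on chr15:78926725-78930465 and overlaps the long non-coding gene Gm30368, which had at most 460 counts in a library. The strand setting of the counting is not given in the sources used here, so reads of the overlap cannot be assigned.

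Of 5 other galectin genes tested, 0 were called higher and 1 lower by edgeR, DESeq2 and limma-voom alike, and the counts were the same at an unadjusted edgeR p under 0.05. By edgeR, 20% of these galectin genes were called, against 8.95% of all genes. Lgals9, the tandem-repeat galectin that binds TIM-3, had 82.3, 86.8, 87.4 and 83.9 CPM with RGX-104 and 92.9, 94.1, 98.1 and 96.4 CPM in control, and it fell (log2 fold change -0.16 ± 0.03, edgeR adjusted p = 8.38e-04, lower in 4 of 4 libraries than every control library). Lgals4 (0.13, edgeR adjusted p = 0.256) and Lgals8 (0.06, edgeR adjusted p = 0.650) did not pass the threshold. Per kilobase, Lgals3 made up 19.1 ± 0.756% of the summed Lgals1, Lgals3 and Lgals9 transcripts with RGX-104 and 10.1 ± 0.631% in control. The share of Lgals9 was 17.0 ± 0.105% with RGX-104 and 23.6 ± 0.390% in control, and that of Lgals1 63.9 ± 0.725% with RGX-104 and 66.4 ± 0.443% in control. Lgals1 was thus the most abundant of the 3 per length in both groups, while Lgals3 was above Lgals9 in RGX-104 libraries and below it in control libraries.

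S100a10 and Anxa2, the 2 subunits of the membrane complex, were both higher by less than 20%. S100a10 had 166, 168, 167 and 169 CPM in the RGX-104 libraries and 134, 147, 148 and 141 CPM in the control libraries. The RGX-104 libraries were tightly grouped and all were above the control libraries, of which library 1 was the lowest. Means were 168 ± 1.401 CPM with RGX-104 and 142 ± 6.22 CPM in control (SD, n = 4 each), 17.6% higher (log2 fold change 0.23 ± 0.03 SE). Anxa2 had 243, 269, 262 and 239 CPM with RGX-104 and 211, 222, 236 and 222 CPM in control. Here too the groups did not overlap, but RGX-104 library 4 was close to control library 3, and again RGX-104 libraries 2 and 3 were the higher pair. Means were 254 ± 14.6 CPM with RGX-104 and 223 ± 10.2 CPM in control (SD, n = 4 each), 13.9% higher (log2 fold change 0.19 ± 0.04 SE; 0.19 with the close pairs summed). S100a10 lies on chr3:93555117-93564645 and Anxa2 on chr9:69453683-69491792.

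Ahnak encodes a very large scaffold protein that binds the complex of S100A10 and annexin A2. It had 224, 223, 216 and 204 CPM with RGX-104 and 175, 186, 167 and 138 CPM in control. Its groups were apart and control library 4 was the lowest, as it was for Plec. The log2 fold change of 0.38 ± 0.09 did not pass the threshold (edgeR adjusted p = 0.0536), and it did without control library 4 (0.30, edgeR adjusted p = 6.14e-06) and by DESeq2 (0.38, DESeq2 adjusted p = 9.82e-04). It also passed by limma-voom (adjusted p = 0.0234), with 1 surrogate variable added to the model and without control library 2. It did not pass without any 1 of the RGX-104 libraries or control libraries 1 and 3 (edgeR adjusted p = 0.0789 to 0.135). With the close RGX-104 pairs summed the edgeR adjusted p was 0.239.

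Of 7 other annexin genes tested, 2 were called higher and 0 lower by edgeR, DESeq2 and limma-voom alike, with 1 lower at an unadjusted edgeR p under 0.05. By edgeR, 28.6% of these annexin genes were called, against 8.95% of all genes. Anxa6, which has a doubled annexin core, had 502, 556, 550 and 521 CPM with RGX-104 and 448, 463, 480 and 472 CPM in control. The groups did not overlap (532 ± 25.4 CPM with RGX-104, 466 ± 13.9 CPM in control, log2 fold change 0.19 ± 0.03, edgeR adjusted p = 1.85e-04). Anxa3 averaged 12.8 ± 0.481 CPM with RGX-104 and 10.1 ± 0.562 CPM in control (log2 fold change 0.33 ± 0.06, edgeR adjusted p = 7.34e-04). Anxa5, the phosphatidylserine binder, had a log2 fold change of -0.11 ± 0.04 (edgeR adjusted p = 0.0864; 0.0479 without control library 2), and Anxa4, Anxa7 and Anxa11 had 0.08, -0.05 and -0.08 (edgeR adjusted p = 0.311, 0.342 and 0.250).

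S100a11, the partner of annexin A1, had 17.3, 18.2, 18.2 and 17.3 CPM with RGX-104 and 15.0, 17.5, 18.0 and 16.2 CPM in control. The groups overlapped, with means of 17.8 ± 0.498 CPM with RGX-104 and 16.7 ± 1.34 CPM in control (SD, n = 4 each; log2 fold change 0.09 ± 0.06 SE). This value is uncertain, because 5 processed pseudogenes match the transcript, the closest at 98.99% identity, and how the counting treated reads that fit several places is not given in the sources used here. The gene lies on chr3:93520496-93526288, close to S100a10.

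S100a4, S100a6 and Anxa1, all known from effector and memory T cells, had the lowest levels of the 10 genes. S100a6 had 51, 61, 45 and 44 counts in the RGX-104 libraries and 39, 44, 26 and 52 counts in the control libraries. The groups overlapped, with means of 1.54 ± 0.177 CPM with RGX-104 and 1.13 ± 0.301 CPM in control (SD, n = 4 each; log2 fold change 0.44 ± 0.18 SE). S100a4 had 12, 12, 16 and 12 counts with RGX-104 and 15, 3, 9 and 10 counts in control. These groups overlapped too, and control library 2 was at the 3 counts taken as the detection floor. The log2 fold change of 0.61 ± 0.35 (SE) rests on these few counts. An annotated readthrough transcript, Gm42674, overlaps part of S100a4 and matches 302 of its 498 transcript bases. Anxa1 had 1, 5, 2 and 3 counts with RGX-104 and 2, 1, 4 and 2 counts in control, did not pass the filter and has no fold change. At this depth no difference between RGX-104 and control was detectable for it. S100a4 lies on chr3:90603770-90606045, S100a6 on chr3:90612894-90614414 and Anxa1 on chr19:20373434-20390671.

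Of 12 other S100 genes, 10 did not pass the filter and had at most 6 counts in any library. S100a13, at a level close to that of S100a11, averaged 15.7 ± 0.486 CPM with RGX-104 and 14.8 ± 0.283 CPM in control, a log2 fold change of 0.09 ± 0.05 (edgeR adjusted p = 0.333) and S100a1 had -0.11 ± 0.15 (edgeR adjusted p = 0.710), with neither called by DESeq2 or limma-voom. Of 18 effector and migration markers of CD8 T cells, 4 did not pass the filter, with at most 2 counts for Klrg1, 7 for Cx3cr1, 7 for S1pr5 and 3 for Itga1 in any library. The other 14 passed it at varied levels, among them the homing receptors Cxcr3 (10.4 ± 0.970 CPM with RGX-104, 9.53 ± 0.822 CPM in control) and Cxcr6 (5.11 ± 0.490 CPM with RGX-104, 4.15 ± 0.927 CPM in control), both named after their values were seen and neither called (edgeR adjusted p = 0.316 and 0.153).

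Of the 9 genes tested, 6 were among the genes called higher with RGX-104, where 4.82% of all 13290 genes were called higher, 4.13% lower and 8.95% in either direction. The groups did not overlap for 6 of the 9, against 14.5% of all genes, and 3 were called and at least 2-fold higher, against 0.233%. The genes were chosen on this contrast, so nothing is read from these shares. Ranked by log2 fold change among all tested genes, Lgals3 was in place 16, Vim 21 and Lmna 25, whereas Lgals1, S100a10 and Anxa2 were in places 1097, 1231 and 1635. The median over the 9 tested genes was 0.44.

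**Figure D2:**
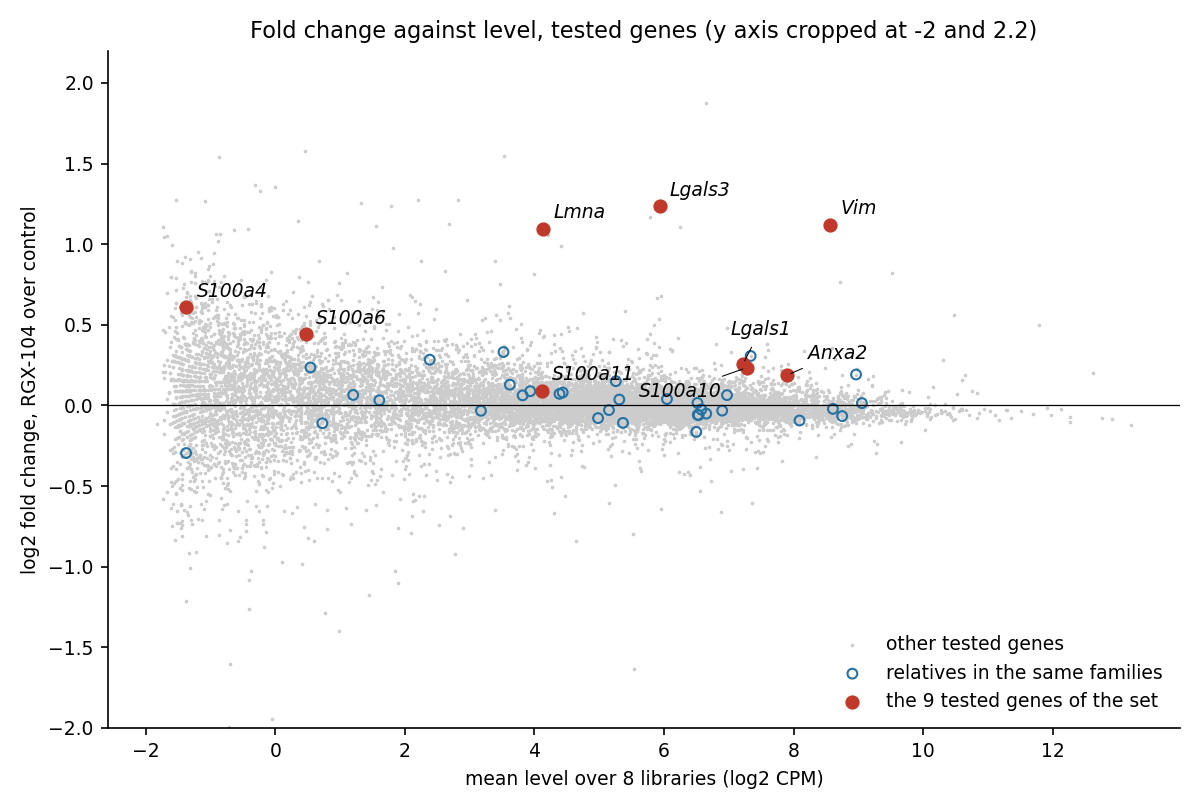
Log2 fold change (RGX-104 over control) against mean log2 CPM over the 8 libraries for the tested genes, with the axis cropped and the 9 tested genes of the set in red and tested family relatives as open blue circles. Lgals3, Vim and Lmna stand apart at 1.10 to 1.24. The relatives lie between -0.30 (Lgals7) and 0.33 (Anxa3), and Lgals1, S100a10, Anxa2 and S100a11 lie within that range. The spread of all genes widens toward low levels, where S100a4 and S100a6 lie.

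Among the 33 tested relatives of the 4 families, 3 were called higher and 2 lower, 15.2% in all against 8.95% of all genes. Their median log2 fold change was 0.02. The groups did not overlap for 7 of the 33, against 14.5% of all genes. Lgals9 fell where Lgals3 was higher, and Lmnb1 and Lmnb2 had small negative values where Lmna was higher. The difference between a gene of the set and its relative was not tested.

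**Figure D3:**
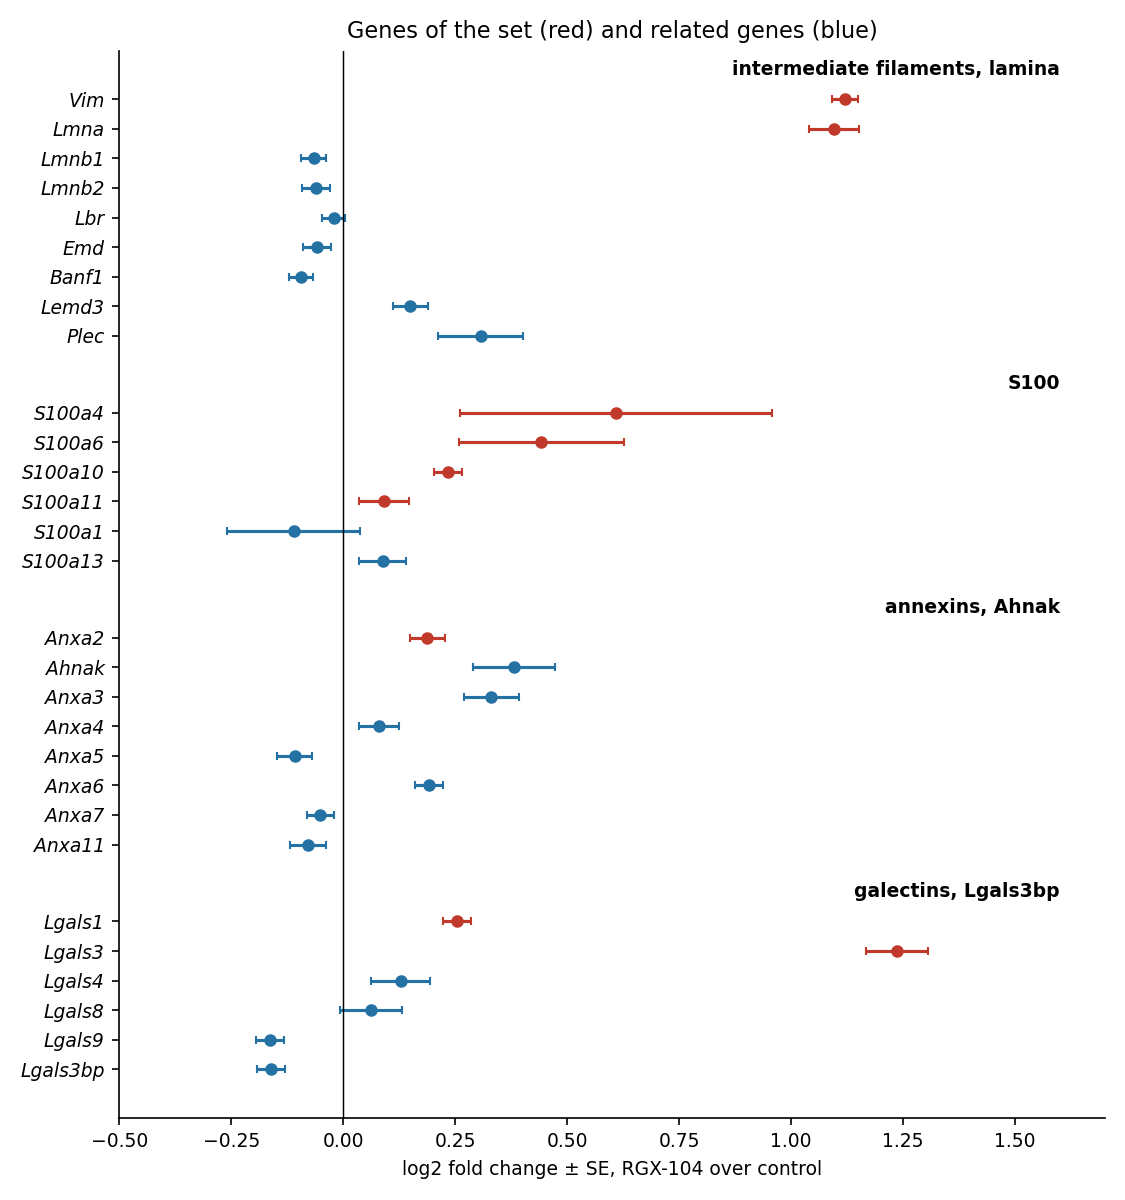
Log2 fold change with SE (RGX-104 over control, n = 4 each) for the tested genes of the set (red) and for related genes (blue), by family. Vim, Lmna and Lgals3 lie between 1.10 and 1.24, and every blue gene lies between -0.16 and 0.38.

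Levels can be compared between genes only per length. In CPM per kilobase of the longest GENCODE coding transcript, the order in control libraries was S100a10 (208 ± 9.08), Lgals1 (169 ± 6.48), Anxa2 (154 ± 7.06), Vim (108 ± 3.67), S100a11 (32.6 ± 2.63), Lgals3 (25.7 ± 2.48), Lmna (3.56 ± 0.299), S100a6 (1.55 ± 0.412), S100a4 (0.520 ± 0.281) and Anxa1 (0.0375 ± 0.0203). No neighbours in that order overlapped between control libraries. In RGX-104 libraries the order was S100a10 (245 ± 2.04), Vim (235 ± 5.31), Lgals1 (202 ± 3.72), Anxa2 (175 ± 10.1), Lgals3 (60.6 ± 4.17), S100a11 (34.8 ± 0.974), Lmna (7.62 ± 0.211), S100a6 (2.104 ± 0.242), S100a4 (0.803 ± 0.134) and Anxa1 (0.0493 ± 0.0279). There S100a10 and Vim overlapped and the other neighbours did not. Vim thus stood in place 2 with RGX-104 and in place 4 in control, and Lgals3 stood above S100a11 with RGX-104 and below it in control. The control order of these last genes was narrow: 29.35 in the lowest library for S100a11 and 29.32 in the highest for Lgals3. It also depends on the transcript length chosen and on the uncertain S100a11 counts.

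In CPM, the 10 genes together made up 1229 ± 33.5 CPM of a RGX-104 library and 804 ± 30.4 CPM of a control library (SD, n = 4 each). Vim alone made up 42.0 ± 0.452% of that sum with RGX-104 and 29.5 ± 0.642% in control. These are shares of counts, not scaled for transcript length, so they do not rank Vim against the other genes.

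**Figure D4:**
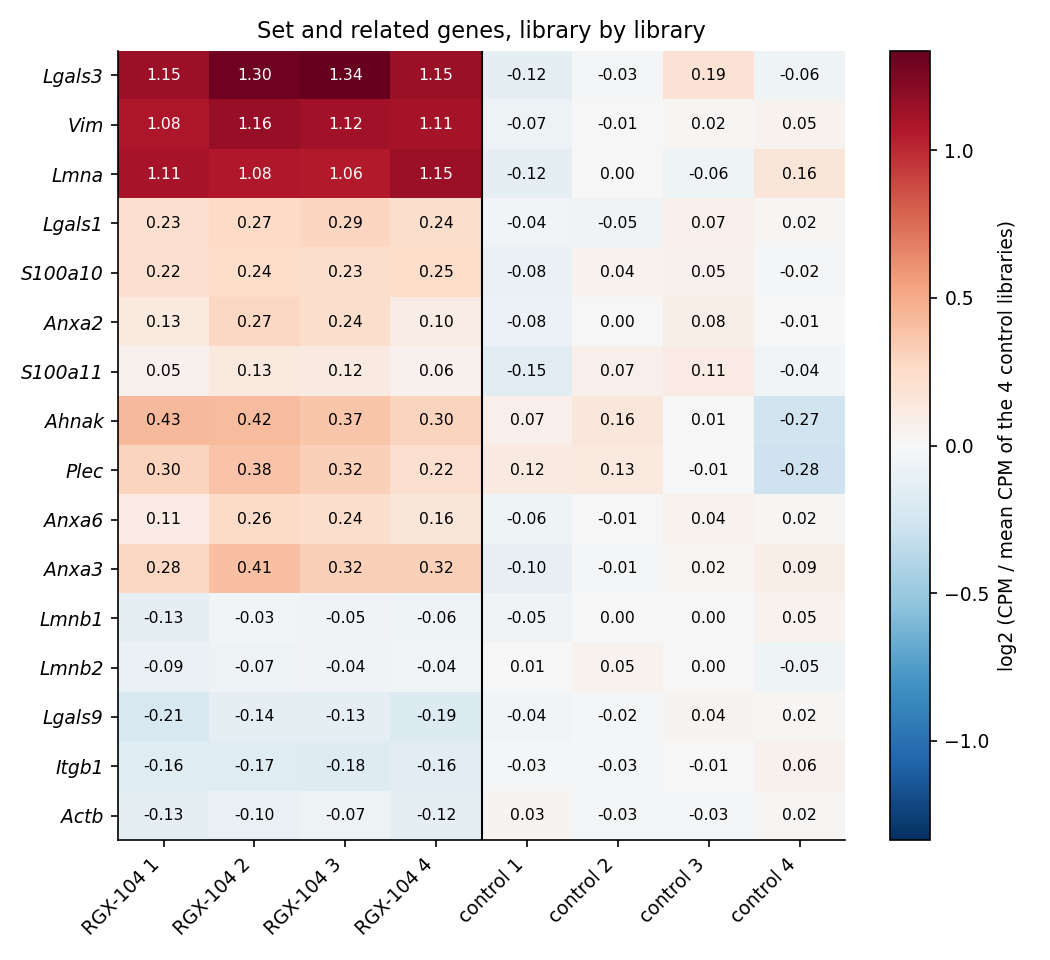
Log2 ratio of each library's CPM to the mean of the 4 control libraries (columns, RGX-104 left of control) for genes of the set and related genes (rows); red is above and blue below the control mean. Lgals3, Vim and Lmna are red in all RGX-104 libraries, Lgals9, Itgb1 and Actb are blue there, and control library 4 is blue for Ahnak and Plec.

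The libraries of a group did not rank the genes in 1 common order. Over the 9 tested genes, RGX-104 library 1 was the lowest of its group for 5 and the highest for 0, and RGX-104 library 2 was the highest for 4. In the control group, library 1 was the lowest for 6 and library 3 the highest for 5. Leaving out any 1 library kept Vim between 1.10 and 1.14, Lmna between 1.06 and 1.15 and Lgals3 between 1.20 and 1.31 on the log2 scale. The low or small differences moved by more: S100a4 had 0.95 without control library 1 and 0.34 without control library 2, S100a6 had 0.27 without control library 3, and S100a11 had 0.04 without control library 1.

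The actin cytoskeleton is joined to vimentin filaments by shared cross-linkers. Of 40 tested genes of actin filaments and motility, edgeR called 0 higher and 2 lower, 5% against 8.95% of all genes. Their median log2 fold change was -0.01. At an unadjusted edgeR p under 0.05 these counts were 5 higher and 7 lower, by DESeq2 2 higher and 3 lower, and by limma-voom 2 higher and 2 lower. Actb, the major actin, fell (4755 ± 82.6 CPM with RGX-104, 5113 ± 107 CPM in control, log2 fold change -0.10 ± 0.02, edgeR adjusted p = 0.00519; 0.0740 with the close RGX-104 pairs summed), as did the actin cross-linker Actn1 (253 ± 6.18 CPM with RGX-104, 291 ± 5.59 CPM in control, log2 fold change -0.20 ± 0.03, edgeR adjusted p = 1.24e-05). Capg, Crip1 and Tagln2, which are commonly found beside Lgals1 and S100 genes in effector T cells, had log2 fold changes of 0.05, 0.02 and -0.02 with overlapping groups (edgeR adjusted p = 0.446, 0.906 and 0.705). Crip1 has a second row in the table, so its counts may be incomplete. At least 1 of the alternatives tried turned the small values of Crip1 and Tagln2 to the other sign.

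Of 16 tested partners, ligands and receptors of these proteins, 4 were called higher and 2 lower, 37.5% against 8.95% of all genes. Havcr2, the receptor TIM-3 that galectin-9 binds, rose at a low level (2.43 ± 0.271 CPM with RGX-104, 1.55 ± 0.187 CPM in control, log2 fold change 0.65 ± 0.14, edgeR adjusted p = 0.00307). Of the 5 glycan enzymes in this list, 3 were among those called higher, a grouping made after the values were seen: St6gal1, a sialyltransferase (68.4 ± 6.38 CPM with RGX-104, 53.3 ± 3.79 CPM in control, edgeR adjusted p = 0.0153), Mgat5, which makes branched N-glycans (49.5 ± 0.746 CPM with RGX-104, 44.3 ± 2.80 CPM in control, edgeR adjusted p = 0.0130), and Mgat1, which starts that branching (log2 fold change 0.12 ± 0.03, edgeR adjusted p = 0.00666; named after its values were seen). B3gnt2 and Gcnt1 were not called (log2 fold changes 0.04 and 0.11, edgeR adjusted p = 0.459 and 0.584). The call of St6gal1 was lost without RGX-104 library 3 (edgeR adjusted p = 0.0556) and with 1 surrogate variable added to the model (edgeR adjusted p = 0.0721). That of Mgat5 was lost without control library 4 (edgeR adjusted p = 0.0533) and with the close RGX-104 pairs summed (edgeR adjusted p = 0.0744). Lgals3bp, the galectin-3 binding protein, fell (79.7 ± 2.17 CPM with RGX-104, 89.1 ± 1.65 CPM in control, edgeR adjusted p = 9.58e-04). Itgb1, the integrin beta 1 chain, had 257, 257, 255 and 259 CPM with RGX-104 and 283, 283, 287 and 301 CPM in control, and it fell (log2 fold change -0.17 ± 0.03, edgeR adjusted p = 1.56e-04). Cd44, the hyaluronan receptor, had a log2 fold change of 0.02 with overlapping groups (edgeR adjusted p = 0.693). Fpr1 and Plg were at 0 in all libraries, and Fpr2 and Plat had at most 1 count.

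Of 14 tested effector and migration markers, 4 were called higher and 3 lower, 50% against 8.95% of all genes. Among those higher, Itgal, the LFA-1 alpha chain, rose (635 ± 12.0 CPM with RGX-104, 560 ± 12.9 CPM in control, edgeR adjusted p = 2.46e-05). So did Emp3 (log2 fold change 0.18 ± 0.04, edgeR adjusted p = 0.00279) and Selplg, the selectin ligand (0.09 ± 0.03, edgeR adjusted p = 0.0410; named after its values were seen). Klf2, a transcription factor of quiescent and recirculating cells (3.88 ± 0.228 CPM with RGX-104, 5.72 ± 0.520 CPM in control, edgeR adjusted p = 2.29e-04), and Gzma, a granzyme (4.21 ± 1.02 CPM with RGX-104, 7.07 ± 1.10 CPM in control, edgeR adjusted p = 0.0250), fell, as did Ccr7, the lymph node chemokine receptor (log2 fold change -0.10 ± 0.03, edgeR adjusted p = 0.0125; named after its values were seen). The call of Gzma was lost without any 1 of RGX-104 libraries 3 and 4 and control libraries 2, 3 and 4 (edgeR adjusted p up to 0.0687). It was also lost with 1 surrogate variable added to the model (edgeR adjusted p = 0.0668). Over these 3 lists, 8 of 70 tested genes were called higher and 7 lower, 21.4% against 8.95% of all genes, with a median log2 fold change of 0.01.

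Genes within 200 kb of the 10 genes were listed after the data had been seen. Of 51 tested, 7 were called higher and 0 lower by edgeR, DESeq2 and limma-voom alike, with a median log2 fold change of 0.01. By edgeR, 4.82% of all 13290 tested genes were called higher and 4.13% lower. Whether the neighbours differ from these shares was not tested. At an unadjusted edgeR p under 0.05, 9 were higher and 5 lower. Near Lmna, 3 of 18 were called higher, of which Sema4a, a semaphorin, had the greatest difference (log2 fold change 1.19 ± 0.05, edgeR adjusted p = 8.57e-15, 28.2 CPM with RGX-104), and the others were Mex3a (0.24) and Khdc4 (0.11). Near Lgals3, 1 of 7 was called higher, Gch1, the first enzyme of tetrahydrobiopterin synthesis (0.26 ± 0.06, edgeR adjusted p = 0.00333). Near Lgals1, 2 of 16 were called higher, Gcat (0.31) and H1f0 (0.27), and near Anxa2, 1 of 2, Rora (0.34). Near Vim none of the 2 tested genes was called by these tools, and around S100a4 and S100a6 none of the same 6.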

How the data were processed

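The deposited file is a table of raw counts of reads, 1 row a gene, for 8 libraries; all its columns were used. Per the submitters' processing notes, cutadapt 2.10, STAR 2.7.5, R 4.1.0, DESeq2 1.4 and the GRCm38 build were used; how reads were counted, with which annotation and strandedness, is not given in the sources used here. Names of the RGX-104 columns give the group only, so these libraries are numbered by column. Tests used edgeR 4.0.16 (R 4.3.3), quasi-likelihood, on the deposited counts (filterByExpr, minimum count 10 and minimum total 15, TMM scaling, robust fitting, treatment as the only term), with Benjamini-Hochberg adjustment over 13290 genes; called means adjusted p under 0.05. The SE was derived from the F statistic. CPM values are deposited counts over TMM-scaled totals. The procedure was tested on simulated data. The 10 genes, the lists and the rule for named genes (all 10, up to 4 called genes per list of mean log2 CPM of at least 1, tested family genes and a fixed set) were chosen with earlier results of these data known. Alternatives were DESeq2 1.42.0, voom of limma 3.58.1 with sample weights, other scalings, no filter, 1 surrogate variable (sva 3.50.0) and leaving out each library. Transcript lengths came from GENCODE, and positions and promoters from RefSeq (GRCm38.p6). A gene that the naming rule selects is not reported here.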

Additional observations from a re-analysis of the deposited data

Results flagged for a closer look

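In 3 of 116 groups of 4 libraries checked, 1 library stood apart from the other 3 by Dixon's criterion at the 95% level, where chance alone gives about 5.8. None of the 3 was a group of Vim, Lmna, S100a4, S100a6, S100a10, S100a11, Anxa2, Lgals1 or Lgals3. Gzma had 2.69 CPM in RGX-104 library 1 against 4.61 to 4.84 CPM in the other 3. Emd had 94.0 CPM in RGX-104 library 2 against 87.9 to 88.7 CPM in the others. Anxa7 had 106.8 CPM in control library 4 against 99.9 to 101.0 CPM in the others.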

How the results depend on the processing

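Over all alternatives run, each of the 9 tested genes of the set kept its direction, and its log2 fold change moved by less than 1 SD between replicates; with 1 library left out this still spanned 0.34 to 0.95 for S100a4, 0.27 to 0.57 for S100a6 and 0.044 to 0.13 for S100a11. Summing the close RGX-104 libraries, an alternative chosen after seeing the data, left 358 genes called higher and 264 lower, where the reported values are 640 and 549; it called 5 instead of 8 genes of the actin, partner and marker lists higher and 1 instead of 2 family relatives lower. With 1 surrogate variable, 1 family relative was called lower. Library totals alone, which moved the median of all genes by only 0.01 on the log2 scale, gave 686 genes higher and 451 lower. The median of the 9 tested genes was 0.59 with limma-voom. Leaving out 1 library at a time gave 462 to 719 genes higher and 377 to 621 lower, 1 to 3 family relatives lower, a median of 0.28 to 0.57 for the set, and a difference in library totals of -4.11 to -2.52 times 1000000 counts (exact permutation p = 0.0286 without RGX-104 library 2). Sign changes were limited to values near 0: Tagln2 (0.0037) and Zmpste24 (0.014) with 1 surrogate variable, Crip1 with limma-voom (-0.011) and without 1 library (-0.0043 to 0.046), and Lgals8 without control library 4 (-0.011; -0.011 to 0.12 over the libraries left out). The calls of Banf1, Lemd3, Mgat5, St6gal1, Gzma, Actb and Cd8a were lost in at least 1 alternative, and Ahnak, Plec and Anxa5 were called in at least 1; the cause was not tested. No paired analysis was made. The labels number the samples 1 to 8 across both groups, and the RGX-104 columns carry numbers that match no RGX-104 title. These numbers recur in the control columns, but no label says that equal numbers belong together. On the first principal component, libraries fell in column order in both groups (14.63 to 8.31 with RGX-104, -5.268 to -17.46 in control). Whether this order reflects a pairing was not tested. Depth limits S100a4, S100a6 and Anxa1, with at most 61 counts in a library.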
